A study of Homo sapiens with 27 samples.

Results

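The interaction between depletion of VPS37A and depletion of VPS37B was measured in 24 of the 27 libraries of the series, all from DLD1, a human colorectal carcinoma cell line. The libraries were chosen by their siRNA labels: the 3 libraries of untransfected cells were left out, and the other 8 groups of 3 form a complete factorial of 3 siRNAs, each present or absent. Every group was collected 72 h after transfection. The groups were siCTRL (a mix of non-targeting siRNAs), siVPS37A, siVPS37B, siVPS37C, the pairs siVPS37AB, siVPS37AC and siVPS37BC, and the triple siVPS37ABC. For the VPS37A by VPS37B question they fold into 4 conditions of 6 libraries: neither paralog depleted (siCTRL and siVPS37C), VPS37A alone (siVPS37A and siVPS37AC), VPS37B alone (siVPS37B and siVPS37BC) and both (siVPS37AB and siVPS37ABC), with VPS37C depleted in 3 libraries of each condition. Each paralog was targeted with 1 siRNA sequence, so an effect of the sequence and an effect of losing its target cannot be told apart, and whether all transfections received equal siRNA in total is not given in the sources used here. Replicates are described as biological in the labels, where the batch of a library is its replicate number. No other statement shows them to be separate cultures, so the p-values measure the spread between these samples.

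VPS37A, VPS37B and VPS37C are alternative subunits of ESCRT-I, a complex that also holds TSG101, VPS28 and an MVB12 or UBAP1 subunit. ESCRT-I acts with the other ESCRT complexes to sort ubiquitinated membrane proteins into the inner vesicles of endosomes, from where receptors and other cargo pass to the lysosome for degradation. Because the paralogs occupy the same place in the complex, one may cover for the loss of another. A factorial design measures the difference between the response to losing both and the sum of the responses to losing each. Whether such a difference comes from a paralog covering for another was not tested.

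The quantity reported here is that difference, called the departure: the log2 level with both depleted, minus that with VPS37A alone, minus that with VPS37B alone, plus that with neither, averaged over VPS37C intact and VPS37C depleted. It is on the log2(TPM + 1) scale. A departure of 1 means that the level with both depleted was 2 times the level given by multiplying the separate fold changes. It equals the VPS37A siRNA effect measured with VPS37B depleted minus the same effect measured with VPS37B intact, and likewise with the paralogs exchanged. A gene is called where the adjusted p was under 0.05 over the 6458 genes tested.

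One library stood apart. The residuals of siVPS37A replicate 3 from the fit of the 3 siRNAs, all 2-way terms and the replicate number had an SD of 0.299 log2 units. In the other libraries it was 0.106 to 0.172. Colorectal epithelial markers were present in every library (10 of 12 in the table, EPCAM and keratins among them), and their summed level ran from 8329 to 13458 TPM with overlapping ranges in the 4 conditions. CLDN4, a tight junction claudin, was the 1 of the 9 epithelial markers tested with a called departure (0.68 ± 0.14, adjusted p = 0.00584), at 349 to 447 TPM in the libraries depleted of both and 134 to 305 in the others. The VPS37A siRNA raised 6 of the 9 with VPS37B depleted, beside 23.8% of all genes tested, and 3 with VPS37B intact, beside 8.95%. Of the fibroblast, leukocyte and endothelial markers 1 of 10, 3 of 11 and 1 of 8 were in the table, with summed levels of 1.37 to 5.73, 8.40 to 13.5 and 1.85 to 6.60 TPM and no value at 0. In a bulk sample, fewer cells of a type and less RNA per cell cannot be told apart.

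Each siRNA lowered its target whether given alone or with the others. As a percentage of the siCTRL mean, VPS37A was at 5.92% ± 1.41 with its siRNA alone, at 5.54% ± 2.74 and 9.11% ± 1.12 in the pairs siVPS37AB and siVPS37AC, and at 7.27% ± 4.02 in the triple (SD, n = 3 each). Its siCTRL level was low, 4.77, 6.06 and 6.57 TPM in replicates 1 to 3, and its mean over all libraries was under the minimum for testing. VPS37B stood at 3.35% ± 1.21 with its siRNA alone, 4.94% ± 0.55 with VPS37A siRNA added, 5.47% ± 2.21 with VPS37C siRNA added and 7.42% ± 1.36 in the triple. VPS37C stood at 21.6% ± 1.36 alone, 23.0% ± 4.64 with VPS37A siRNA added, 28.7% ± 2.67 with VPS37B siRNA added and 22.7% ± 2.84 in the triple. The departure of VPS37B was 0.11 ± 0.18 (SE, adjusted p = 0.799) and that of VPS37C was -0.06 ± 0.20 (adjusted p = 0.915), so neither was called.

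The response to losing both paralogs departed from the sum of the separate responses in 201 of 6458 genes (3.11%). The departure was positive in 117 genes (1.81%), among them genes of glutathione synthesis, stress and MAPK phosphatase genes, and negative in 84 (1.3%), among them histone genes and the intestinal transcription factor CDX2. The median departure of all genes tested was -0.01 and the median SE 0.14, and the smallest called departure was 0.36 in size. Of the called genes, 12 departed by more than 1 and 2 by less than -1. All 201 had the same sign in each of the 3 replicate numbers. The mean level was highest with both depleted in 113 of the 117 positive genes and lowest in 81 of the 84 negative ones. All 6 libraries depleted of both lay above the other 18 in 54 of the positive genes, against 1.87% of all genes tested, and all 6 lay below the other 18 in 15 of the negative ones, against 0.387%. These counts follow in part from the call itself.

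The number of calls depended on the libraries used. Without all libraries of replicate number 1, 2 genes were called (KRTAP2-3 and C2orf54), against 49 without number 2 and 207 without number 3. With 1 library left out, the count fell to 110 without siVPS37ABC replicate 3, 115 without siVPS37AB replicate 1, 119 without siVPS37AC replicate 3 and 131 without siVPS37C replicate 3. It rose to 355 without siVPS37A replicate 3, the library that stands apart, and these included all 201. The library descriptions end in a number whose meaning the labels do not give. It does not cancel from the departure in any replicate number, and with a term for it 63 genes were called, 53 of them among the 201.

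**Figure D1:**
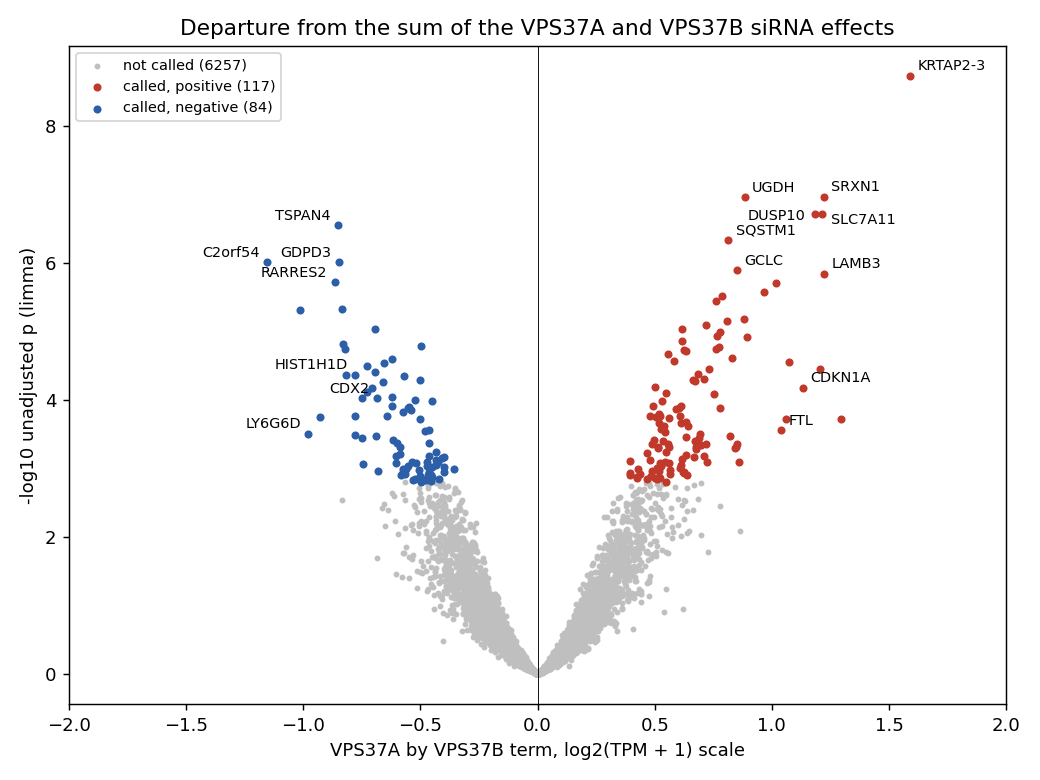
Each point is 1 of the 6458 genes tested, with the VPS37A by VPS37B departure on the x axis (log2(TPM + 1) scale) and -log10 of limma's unadjusted p on the y axis. The 117 called positive genes (red) reach 1.59 at KRTAP2-3, and the 84 called negative genes (blue) reach -1.16 at C2orf54.

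Targets of NRF2, the transcription factor that answers oxidative and electrophilic stress, held the largest share of positive departures among the 26 gene lists examined. Of 15 members tested (of 22 listed), 9 had a called positive departure and none a negative one, which is 60% beside 1.81% of all genes tested, and their median departure was 0.54. With VPS37B intact the VPS37A siRNA raised 5 of the 15, beside 8.95% of all genes tested, and with VPS37B depleted it raised 11, beside 23.8%. The VPS37B siRNA raised 1 and lowered 3 with VPS37A intact, beside 4.97% and 4.6% of all genes tested. With VPS37A depleted it raised 10 and lowered 1, beside 11.8% and 10.9%.

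The promoters of the members were searched for the core of the antioxidant response element, the site that NRF2 binds, spelled TGACNNNGC, on both strands of the 300 bases from 250 before to 50 after each gene's start (RefSeq, GRCh38.p14). RefSeq promoters matched 11 of the 15 members, and 3 of these held the motif (GCLM, ME1 and PGD), against 13.6% of all 27305 promoters. The windows of the 2 called members that held it are shown, with the motif in capitals. They are at chr1:93909445-93909474 on the plus strand and chr6:83431169-83431198 on the minus strand. The motif lies 34 bases before the start in GCLM and 137 before it in ME1. ME1 holds a further match past the start, which is not shown. The ME1 match that is shown also holds the AP-1 motif TGACTCA, whose first bases are the same. A match is a description of the letters only.
GCLM: ctggaagacaaTGACTAAGCagaaatcgta
ME1: tctcctgccaTGACTCAGCgcttctcgcag

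Among the called members were genes of cystine uptake and glutathione synthesis. SLC7A11, the cystine transporter subunit, had a lowest, median and highest level of 8.22, 13.9 and 23.6 TPM with neither paralog depleted. With VPS37A alone depleted these were 12.2, 23.1 and 29.1, with VPS37B alone 10.3, 16.1 and 24.5, and with both 43.9, 58.2 and 63.6. The 6 libraries depleted of both lay above the other 18, which overlapped each other. Its departure was 1.21 ± 0.17 (SE, adjusted p = 2.47e-04), with 1.53, 1.05 and 1.07 in replicate numbers 1 to 3. GCLC, the catalytic subunit of the enzyme that limits glutathione synthesis, had medians of 32.8 TPM with neither, 32.7 with VPS37A alone, 27.5 with VPS37B alone and 50.4 with both (range 41.4 to 63.5 with both, and 18.9 to 44.8 in the other libraries). The VPS37A siRNA effect on it was 0.07 with VPS37B intact and 0.92 with VPS37B depleted, a departure of 0.85 ± 0.13 (adjusted p = 8.12e-04). GCLM, the modifier subunit of the same enzyme, had medians of 14.4 TPM with neither, 19.4 with VPS37A alone and 31.9 with both, and ran from 9.63 to 17.5 with VPS37B alone, with a departure of 0.78 ± 0.17 (adjusted p = 0.0116).

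Antioxidant enzymes were called too, and SRXN1 had the largest departure of the list. SRXN1, the sulfiredoxin that restores oxidised peroxiredoxins, ran from 32.2 to 59.4 TPM (median 44.2) with neither depleted and from 51.5 to 87.6 (median 59.4) with VPS37A alone. It ran from 32.3 to 51.6 (median 40.7) with VPS37B alone and from 114 to 146 (median 132) with both. The libraries depleted of both were separate from all others, and the departure was 1.22 ± 0.17 (adjusted p = 2.32e-04), with 1.24 while VPS37C was intact and 1.21 while it was depleted. NQO1, the quinone reductase often used as a readout of NRF2, showed effects of opposite sign: the VPS37B siRNA lowered it with VPS37A intact (-0.38, adjusted p = 0.0131) and raised it with VPS37A depleted (0.41, adjusted p = 0.00237). Its medians were 275, 241, 191 and 346 TPM, and the libraries depleted of both (233 to 431) overlapped the rest. GSR (glutathione reductase, 0.54 ± 0.13, adjusted p = 0.0166) and ME1 (malic enzyme, a source of NADPH, 0.61 ± 0.14, adjusted p = 0.0154) were also called. The ferritin chains FTL (1.04 ± 0.24, adjusted p = 0.0186) and FTH1 (0.39 ± 0.10, adjusted p = 0.0354) were called too, and both have processed gene copies that could share reads. FTL was also uneven: while VPS37C was intact its departure was 0.26, against 1.82 while it was depleted.

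Of the 6 members not called, TKT departed by 0.08, HMOX1 by 0.07, TXN by 0.07, TALDO1 by 0.01 and PGD by -0.14. TKT, TALDO1 and PGD are enzymes of the pentose phosphate pathway. HMOX1, which breaks down haem, stood 0.30 higher with VPS37A siRNA at VPS37B intact and 0.37 higher at VPS37B depleted. Counts of called members moved with the libraries used: 0 of 15 were called without replicate number 1, 5 without number 2, 6 without number 3, 1 without the replicate block, and 4 with a term for the library description number. With 1 library left out the count ran from 7 (without siVPS37ABC replicate 3) to 10.

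**Figure D2:**
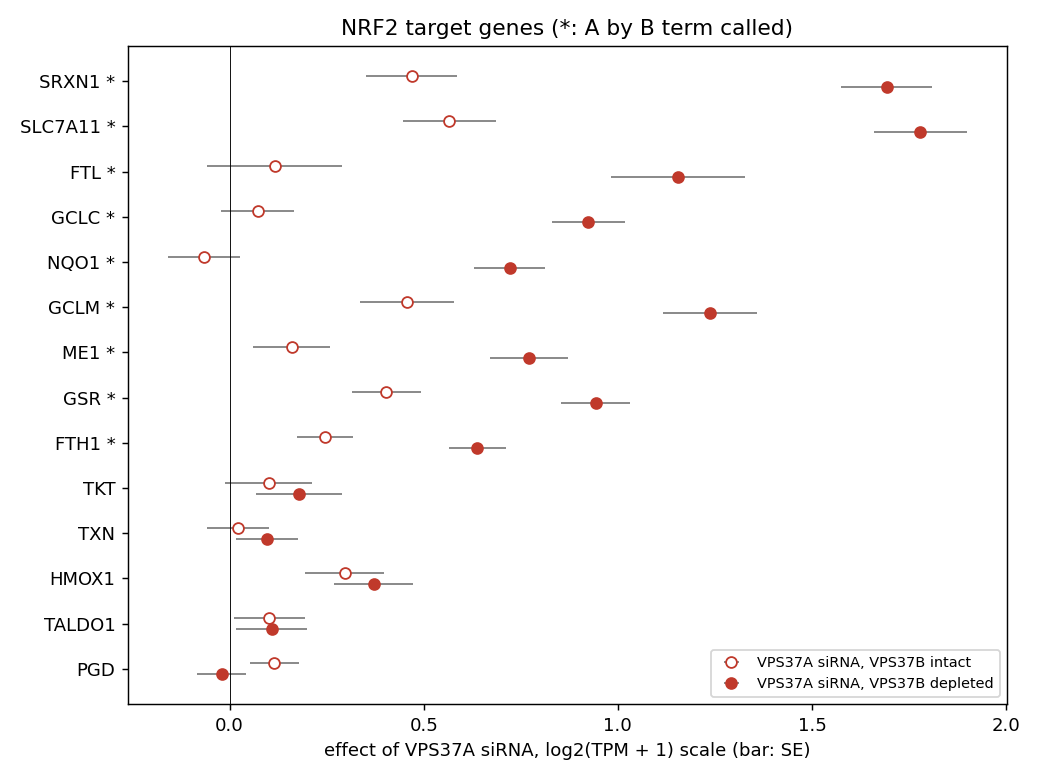
The effect of the VPS37A siRNA on 14 of the 15 NRF2 targets tested (log2(TPM + 1) scale, bars are SE), measured with VPS37B intact (open) and with VPS37B depleted (filled). The distance between the points of a gene is its departure, and an asterisk marks the 9 that were called. SRXN1 moved from 0.47 to 1.69 and GCLC from 0.07 to 0.92, and the points of TXN, TKT, HMOX1 and TALDO1 lie near each other.

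Feedback genes of the MAPK pathway and AP-1 factors gave 6 called positive departures of 22 tested (27.3%, beside 1.81% of all genes). None was called negative, and the list median was 0.20. The called members were 3 dual-specificity phosphatases that switch off MAP kinases (DUSP10, DUSP5 and DUSP1), the AP-1 subunits FOSL2 and JUND and the zinc finger factor KLF6. DUSP5, which acts on nuclear ERK, ran from 61.2 to 99.5 TPM (median 81.3) with neither depleted and from 118 to 225 (median 167) with VPS37A alone. It ran from 75.4 to 126 (median 99.9) with VPS37B alone and from 368 to 478 (median 416) with both, with no overlap between both and the rest. Its departure of 1.02 ± 0.16 (adjusted p = 9.55e-04) came on top of a VPS37A siRNA effect of 1.01 with VPS37B intact. DUSP10, which acts on JNK and p38, was at most 18.9 TPM with neither, had medians of 18.7 with VPS37A alone, 12.3 with VPS37B alone and 42.1 with both, and its VPS37A siRNA effect was 0.47 with VPS37B intact and 1.65 with VPS37B depleted (adjusted p of the departure 2.47e-04). For DUSP1 the departure was 1.07 ± 0.21 (adjusted p = 0.00456). KLF6 (0.73), FOSL2 (0.70) and JUND (0.56) were smaller. Called members numbered 0 without replicate number 1 and 4 to 7 with 1 library left out. None of the 8 EGFR ligands, receptors and feedback genes was called (median 0.24), and the smallest adjusted p there was that of the feedback inhibitor ERRFI1 (0.70 ± 0.20, adjusted p = 0.0502).

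NF-kB targets and subunits gave 5 called positive departures of 16 tested (31.2%, beside 1.81% of all genes) and none negative, with a median of 0.43. The VPS37A siRNA raised 9 of the 16 with VPS37B intact (8.95% of all genes) and 14 with VPS37B depleted (23.8% of all genes). NFKB2, the precursor subunit of the non-canonical pathway, ran from 35.2 to 68.1 TPM (median 57.4) with neither and from 83.8 to 101 (median 97.8) with VPS37A alone. It ran from 45.8 to 65.4 (median 56.6) with VPS37B alone and from 138 to 202 (median 168) with both. Its departure was 0.75 ± 0.16 (adjusted p = 0.00892). RELB, the partner of NFKB2, departed by 0.68 ± 0.17 (adjusted p = 0.0264), and the inhibitor NFKBIA by 0.59 ± 0.13 (adjusted p = 0.0118). The cytokine IL18 departed by 0.55 ± 0.12 (adjusted p = 0.00881). IL32, an inflammatory mediator, departed by 1.06 ± 0.24 (adjusted p = 0.0140), and its values in replicate numbers 1 to 3 were uneven, at 1.78, 0.09 and 1.31. Without replicate number 1 no member was called, without the replicate block 1 was, and with 1 library left out 4 to 7 were. Of 10 death receptor and TNF receptor family genes none was called (median 0.21). There the smallest adjusted p was that of MAP3K14, the kinase of the non-canonical pathway (0.51, adjusted p = 0.0628).

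The NF-kB motif, GGG then any 2 bases then TTTCC on either strand, was in 6 of the 12 members with a RefSeq promoter (IL32, NFKB1, NFKBIA, NFKBIZ, CXCL2 and CXCL3), against 1.9% of all promoters. The list was built of known NF-kB targets, so this share describes the list and not the departure: 2 of the 3 called members with a promoter held it. These 2 are shown, with the motif in capitals, at chr16:3065294-3065323 and chr14:35404811-35404840, both on the plus strand of GRCh38.p14. The AP-1 motif TGACTCA was in 1 of the 15 MAPK and AP-1 list members with a promoter (FOSL2), against 4.9% of all promoters.
IL32: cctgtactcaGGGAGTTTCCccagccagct
NFKBIA: gtcaggctcgGGGAATTTCCaagccagtca

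Lysosome and autophagy genes gave 6 called positive departures of 33 tested (18.2%, beside 1.81% of all genes) and none negative, with a median of 0.22. VPS37A siRNA raised 9 and lowered 1 of the 33 with VPS37B intact, and raised 25 with VPS37B depleted, beside 8.95% and 23.8% of all genes raised. SQSTM1, the autophagy receptor p62, ran from 324.8 to 511.6 TPM with neither, from 501.1 to 699.0 with VPS37A alone, from 355.7 to 613.7 with VPS37B alone and from 1115 to 1332 with both. The levels with both depleted did not overlap the others, and the departure was 0.81 ± 0.12 (adjusted p = 4.21e-04). TFE3, a transcription factor of lysosomal genes, had medians of 16.2, 17.1, 16.3 and 27.3 TPM in the 4 conditions and a departure of 0.55 ± 0.14 (adjusted p = 0.0289). Smaller calls were the lysosomal hydrolases NEU1 (0.56) and GLA (0.51), the cholesterol exporter NPC1 (0.48) and the autophagy receptor OPTN (0.52). With 1 library left out 3 to 8 members were called (3 without siVPS37AB replicate 1), and without replicate number 1 none. Among cholesterol synthesis and uptake genes 2 of 25 were called, both positive (8%, beside 1.81% of all genes). The synthesis enzyme HMGCS1 was among them (0.62 ± 0.17).

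None of the 5 ESCRT-I subunit genes tested was called (median 0.11), VPS37B and VPS37C included, and TSG101 departed by 0.13 ± 0.09 (adjusted p = 0.513). VPS37B, whose value is the list median, and VPS37C were themselves siRNA targets. Their departures therefore cannot show whether these 2 genes respond. Of 25 other ESCRT genes 2 were called, both positive (8%, beside 1.81% of all genes): HGS, the ESCRT-0 subunit that binds ubiquitinated cargo (0.48 ± 0.11, adjusted p = 0.0135), and the ESCRT-III subunit CHMP2B (0.50 ± 0.14, adjusted p = 0.0466).

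Stress and growth arrest lists held positive calls as well. For the ATF4 list 3 of 18 were called, all positive (16.7%, beside 1.81% of all genes, median 0.27): SLC7A11, which is in the NRF2 list too, ATF3 (0.85 ± 0.21) and TRIB3 (0.43 ± 0.11). Without siVPS37AB replicate 1 the count was 1, and without replicate number 1 or without the replicate block it was 0. Of 20 ER chaperone and ERAD genes only HERPUD1 was called (0.52 ± 0.14, adjusted p = 0.0455). The p53 target and growth arrest list gave 3 of 15, all positive (20%, beside 1.81% of all genes, median 0.24): CDKN1A, SFN and BTG1. CDKN1A encodes the cyclin-dependent kinase inhibitor p21. It ran from 8.93 to 26.0 TPM with neither, from 15.3 to 30.1 with VPS37A alone, from 16.4 to 36.7 with VPS37B alone and from 51.1 to 103 with both, a separate range. Its departure was 1.13 ± 0.24 (adjusted p = 0.00766). SFN (14-3-3 sigma) departed by 0.84 ± 0.21 and BTG1, an antiproliferative factor, by 0.56 ± 0.14. Without siVPS37AB replicate 1 CDKN1A alone was called, and without replicate number 1 or without the replicate block no member of this list was. Hypoxia and glycolysis genes had 2 calls of 13, both positive (15.4%, beside 1.81% of all genes). They were the repressor BHLHE40 (0.89 ± 0.16) and the peptide hormone ADM (0.85 ± 0.21). No heat shock chaperone (of 15), apoptosis regulator (of 10) or housekeeping gene (of 13) was called, and the medians were -8.32e-05, -0.08 and 0.06.

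**Figure D3:**
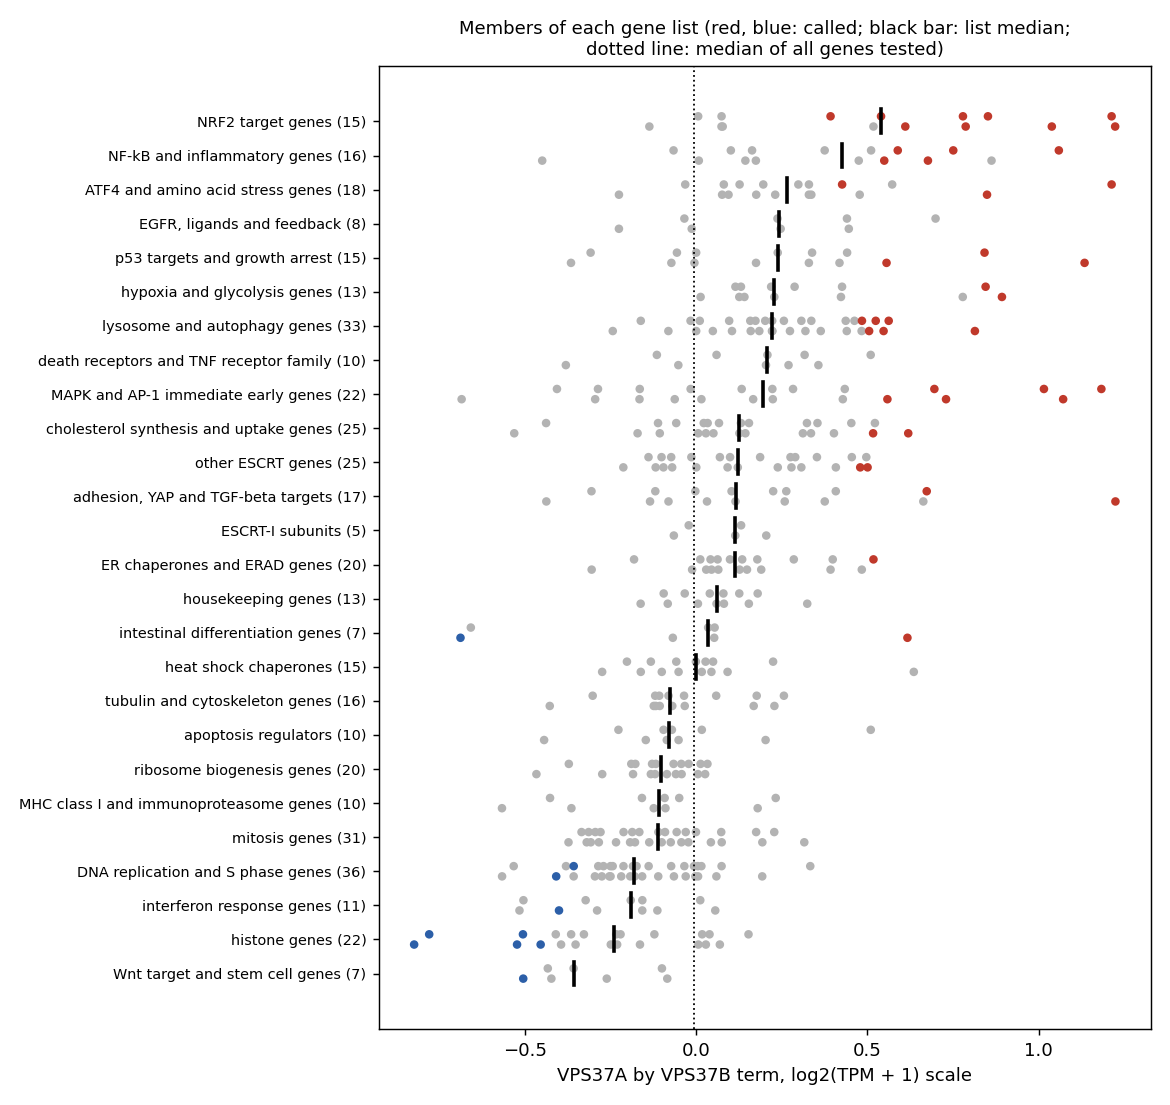
Departure of each tested member of the 26 gene lists (points, log2(TPM + 1) scale), with the number tested in brackets, called genes in red or blue, the list median as a black bar and the median of all genes tested as a dotted line. The NRF2 list has the highest median, 0.54, with 9 of 15 called, and the Wnt and histone lists have the lowest, -0.36 and -0.24.

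Negative departures were called for 5 members of the histone list and for 2 DNA replication genes. Of 22 tested members of the histone list 5 were called, all negative (22.7%, beside 1.3% of all genes), with a median of -0.24. HIST1H2AJ and HIST1H2BE, called histone genes outside the list, departed by -0.73 and -0.69 and are not in this count. The VPS37A siRNA lowered 20 of the 22 with VPS37B intact, beside 2.82% of all genes, and 21 with VPS37B depleted, beside 13.4%. In the 5 called members the median level was lower with VPS37A alone than with neither, and lower again with both. Departures above 0 were found in 6 of the 22. HIST1H3J, a replication-dependent H3 gene, ran from 3169 to 5084 TPM with neither and from 1951 to 2755 with VPS37A alone. It ran from 3152 to 4752 with VPS37B alone and from 1096 to 2117 with both. The last range overlapped that of VPS37A alone, and the departure was -0.52 ± 0.11 (adjusted p = 0.0100). HIST1H2BM (-0.82 ± 0.15) and the linker histone HIST1H1D (-0.78 ± 0.16) departed most in this list, and with untransfected cells in place of siCTRL the departure of HIST1H2BM was -0.22 (adjusted p = 0.646). Histone genes share near-identical coding sequence, so the reads of single members are uncertain. With 1 library left out 3 to 5 were called, and without replicate number 1 none. Among 36 DNA replication and S phase genes 2 were called, both negative (5.56%, beside 1.3% of all genes). They were GINS2, part of the replicative helicase (-0.41 ± 0.11), and TYMS, which makes thymidylate (-0.36 ± 0.10). None of 31 mitosis genes was called, and TPX2, a spindle assembly factor, departed by -0.33 (adjusted p = 0.0755). No ribosome biogenesis gene (of 20), MHC class I or immunoproteasome gene (of 10) or tubulin or cytoskeleton gene (of 16) was called. The members with the smallest p were BOP1 (-0.47), PSMB9 (-0.57, adjusted p = 0.0502) and TUBA4A (-0.43).

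Intestinal and signalling genes were divided. CDX2, the homeobox factor of intestinal identity, ran from 116 to 167 TPM with neither (median 143), from 103 to 135 with VPS37A alone (median 107) and from 119 to 177 with VPS37B alone (median 131). With both it ran from 48.2 to 96.6 (median 62.7), below all other libraries, and its departure was -0.69 ± 0.15 (adjusted p = 0.00965). KRT20, a keratin of differentiated colon epithelium, departed the other way, by 0.62 ± 0.16 (adjusted p = 0.0338), with medians of 33.2, 43.4, 38.0 and 87.4 TPM. The other 5 differentiation genes tested were not called. All 7 Wnt target and stem cell genes had a departure under 0 (median -0.36). The list median was -0.43 with VPS37C intact and -0.12 with VPS37C depleted. BMP4 was the 1 called (-0.50 ± 0.11, adjusted p = 0.0140), with LEF1 at -0.43 (adjusted p = 0.0505) and AXIN2 at -0.36 (adjusted p = 0.0619). With untransfected cells in place of siCTRL the median of this list was -0.10 and BMP4 was not called (adjusted p = 0.0929), nor was it with a term for the library description number (adjusted p = 0.245). In the adhesion, YAP and TGF-beta list 2 of 17 were called, both positive (11.8%, beside 1.81% of all genes). LAMB3, a laminin chain of the epithelial basement membrane, had medians of 39.7, 51.6, 31.3 and 108 TPM and a departure of 1.22 ± 0.19 (adjusted p = 8.24e-04). PLAUR, the urokinase receptor gene, departed by 0.67 ± 0.16. The YAP targets CTGF and CYR61 were not called (0.03 and -0.12). The VPS37B siRNA effect on CTGF was -0.99 with VPS37A intact and -0.96 with VPS37A depleted.

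The strongest single departures lay partly outside these lists: of the 24 genes with the largest called departures at a mean of at least 30 TPM, 11 were list members. KRTAP2-3, a keratin-associated protein gene with near-identical family copies, had the largest departure, 1.59 ± 0.17 (adjusted p = 1.18e-05), with 1.56, 1.64 and 1.57 in replicate numbers 1 to 3 and medians of 13.4, 25.0, 16.3 and 77.2 TPM. UGDH, which makes UDP-glucuronic acid, ran from 80.5 to 168 TPM with neither, from 101 to 149 with VPS37A alone, from 85.2 to 148 with VPS37B alone and from 174 to 304 with both. With the other paralog intact, the effects on it of the VPS37A siRNA (0.04, adjusted p = 0.795) and the VPS37B siRNA (-0.16, adjusted p = 0.254) did not pass the test, and its departure was 0.88 ± 0.12 (adjusted p = 2.32e-04). The secreted netrin NTN4 (0.97 ± 0.16) and the potassium channel gene KCNK1 (0.88 ± 0.15) were the other positive ones outside the lists.

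Among negative departures, C2orf54 ran from 36.5 to 85.2 TPM with neither, from 29.8 to 55.2 with VPS37A alone and from 39.9 to 68.1 with VPS37B alone. With both it ran from 14.3 to 19.8, with no overlap, and its departure was -1.16 ± 0.18 (adjusted p = 6.89e-04). TSPAN4, a tetraspanin, had medians of 55.4, 60.6, 60.4 and 36.2 TPM. The VPS37A siRNA effect on it was 0.20 with VPS37B intact (adjusted p = 0.126) and -0.65 with VPS37B depleted (adjusted p = 2.48e-06), a departure of -0.85 ± 0.12. RARRES2, which encodes chemerin, departed by -0.87 ± 0.14, and its libraries depleted of both (at most 36.1 TPM) lay below all others (44.4 to 90.8). GDPD3 (-0.85), SELENBP1 (-0.70), the actin regulator CORO1A (-0.78) and LY6G6D (-0.98) were also negative, as were the histone genes HIST1H2AJ (-0.73) and HIST1H2BE (-0.69). LY6G6D and CORO1A rested on the groups with VPS37C intact (-1.72 and -1.25, against -0.24 and -0.30 with VPS37C depleted), and both lost the call with untransfected cells in place of siCTRL (adjusted p = 0.637 and 0.668). RARRES2 lost it there too (adjusted p = 0.0679).

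**Figure D4:**
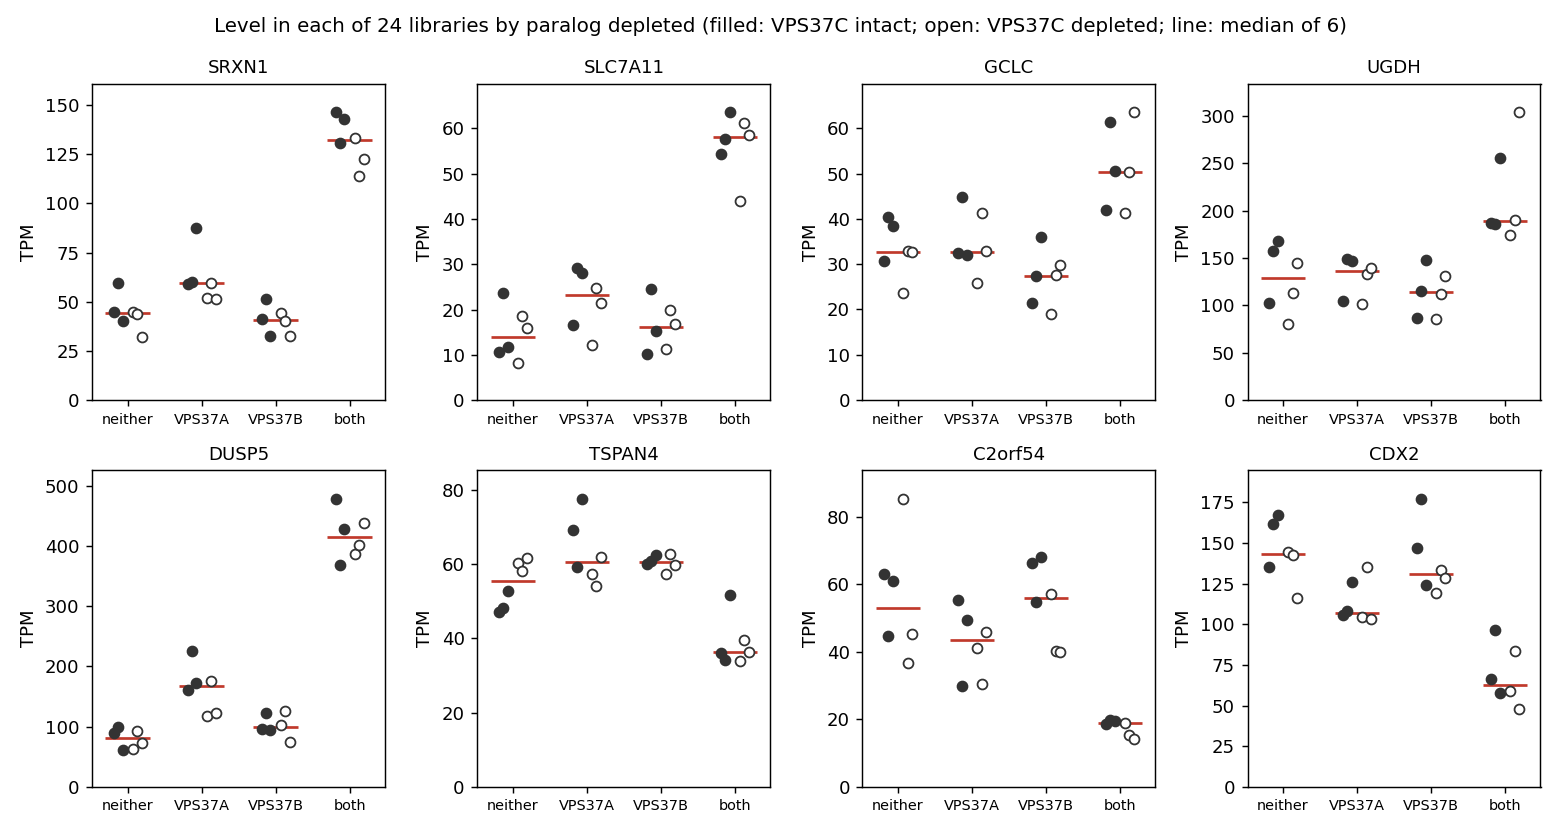
Level in TPM (linear axes from 0) of 8 genes in each of the 24 libraries by the paralog depleted, with VPS37C intact (filled) or depleted (open) and the median of 6 as a line. For SRXN1, SLC7A11, UGDH and DUSP5 the libraries depleted of both lie above the rest, and for C2orf54 and CDX2 they lie below it, while GCLC and TSPAN4 overlap in part.

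Of the 24 genes with the largest departures, 22 lost the call without replicate number 1, 3 without number 2 and 4 without number 3, and 20 of them stayed called with untransfected cells in place of siCTRL. With a term for the library description number 10 of the 24 lost the call, and without the replicate block 13 did. In the groups with VPS37C intact alone 22 lost it, and in those with VPS37C depleted alone 4. None of the 24 changed sign in any of the fits run. Across the 24 fits that each left out 1 library, 41 of the 67 called genes that were followed stayed called throughout, SRXN1, SLC7A11, GCLC, NQO1, DUSP5, SQSTM1, CDKN1A and CDX2 among them. With a term for the library description number 38 of the 67 lost the call, among them CDX2 (adjusted p = 0.224), GCLC (adjusted p = 0.0641) and DUSP5 (adjusted p = 0.0532), and in the groups with VPS37C intact alone 65 did. FTL, LY6G6D and CORO1A lost the call without siVPS37ABC replicate 3 (adjusted p = 0.0529, 0.0543 and 0.0543) and HSPB11 without siVPS37AB replicate 1 (adjusted p = 0.0537). PLAUR lost it in 3 of the 24 fits, BTG1 in 4, FOSL2 in 5, ATF3, ADM, RELB and SFN in 7, KRT20 and TFE3 in 10 and GINS2 in 11. FTH1 lost it in 13, TYMS and OPTN in 14, JUND, HIST1H1B and HIST1H2AM in 15, HMGCS1, NPC1 and CHMP2B in 16, and TRIB3 and HERPUD1 in 18. The highest adjusted p among all of these was 0.108, for HERPUD1 without siVPS37AB replicate 1.

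The same table can be read as the effect of 1 siRNA at each state of the other paralog. The VPS37A siRNA changed 760 genes with VPS37B intact (11.8%), 578 of them up (8.95%) and 182 down (2.82%), and 2402 with VPS37B depleted (37.2%), 1538 up (23.8%) and 864 down (13.4%). The median SE was the same for both, 0.10. More than 2-fold changes numbered 9 up and 2 down with VPS37B intact, against 73 up and 19 down with VPS37B depleted. These estimates come from separate libraries. Of the genes raised, 455 were on both lists, which is 78.7% of the list with VPS37B intact and 29.6% of the list with VPS37B depleted. Of those lowered, 152 were shared, 83.5% and 17.6%. The balance of up and down rested on the scaling: after quantile normalization the counts were 316 up and 283 down with VPS37B intact and 1143 and 1242 with VPS37B depleted, and with median-ratio size factors 287 and 337, and 1185 and 1219. Without siVPS37AC replicate 2, 478 genes were called with VPS37B intact.

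The VPS37B siRNA changed 618 genes with VPS37A intact (9.57%), 321 up (4.97%) and 297 down (4.6%), and 1468 with VPS37A depleted (22.7%), 764 up (11.8%) and 704 down (10.9%). Shared genes were 142 up, 44.2% and 18.6% of the lists, and 142 down, 47.8% and 20.2%. The count with VPS37A intact moved by over 1.5 times with 8 of the 24 libraries left out in turn: it fell to 255 and 331 without siVPS37B replicates 1 and 2, to 405 without siVPS37BC replicate 1, to 309 without siVPS37C replicate 3 and to 332, 354 and 339 without siCTRL replicates 1 to 3, and rose to 994 without siVPS37A replicate 3.

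Set against these effects, the called departures had a common form. Of the 117 positive genes, VPS37A siRNA raised 51 and lowered 1 with VPS37B intact and raised 116 with VPS37B depleted. The VPS37B siRNA raised 8 and lowered 15 of them with VPS37A intact and raised 104 with VPS37A depleted. Of the 84 negative genes, VPS37A siRNA raised 8 and lowered 15 with VPS37B intact and lowered 79 with VPS37B depleted, and VPS37B siRNA raised 14 and lowered 3 with VPS37A intact and lowered 73 with VPS37A depleted. Of all genes tested, the VPS37A siRNA raised 8.95% and lowered 2.82% with VPS37B intact, and raised 23.8% and lowered 13.4% with VPS37B depleted. For the VPS37B siRNA these were 4.97% and 4.6% with VPS37A intact and 11.8% and 10.9% with VPS37A depleted. The departure is the difference between the effects with the other paralog depleted and intact, so all these counts are a description.

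VPS37C was depleted in 3 of the 6 libraries of each condition, which allows the departure to be taken at each state of VPS37C. With VPS37C intact 46 genes were called (0.712%), 31 positive (0.48%) and 15 negative (0.232%), and with VPS37C depleted 118 (1.83%), 69 positive (1.07%) and 49 negative (0.759%). These calls used the spread of all libraries fitted. Fits of each state alone, counted in the last section, called fewer genes with VPS37C intact and more with it depleted. Medians over all genes were 0.06 and -0.06. The departures correlated across genes with r = 0.206, given as a description, since genes are not independent replicates and the values share replicate numbers. In all 117 positive and 84 negative genes both values had the sign of their mean. That count follows in part from the call, which was made on the mean of the same values. Some lists differed in median between the states: DNA replication genes had 0.02 with VPS37C intact and -0.32 with it depleted, and mitosis genes 0.09 and -0.31. NRF2 targets had 0.38 and 0.66, Wnt target and stem cell genes -0.43 and -0.12, and MAPK and AP-1 genes 0.25 and 0.19. The number that ends the library description does not cancel from the difference between these states in any replicate number.

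**Figure D5:**
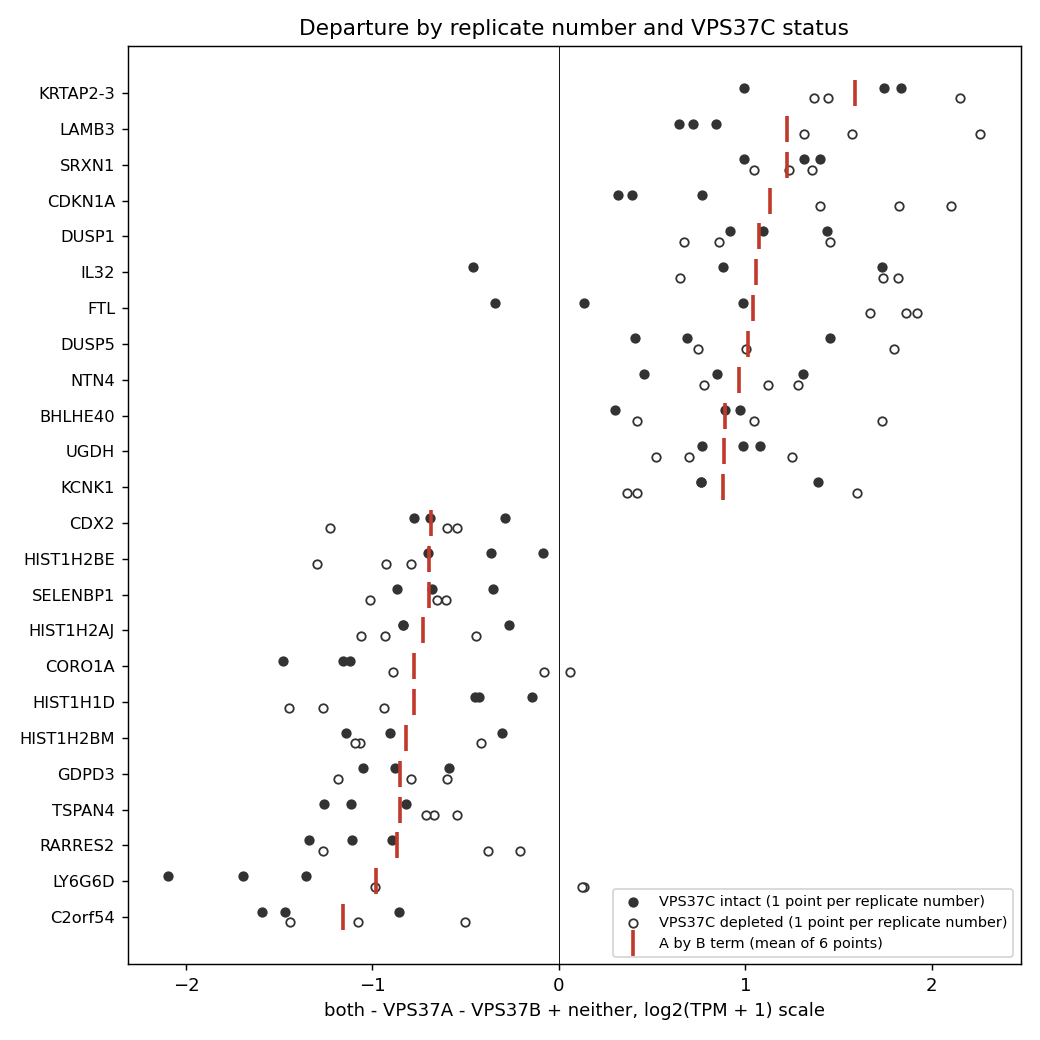
Departure of the 24 genes named by size (log2(TPM + 1) scale, both minus VPS37A minus VPS37B plus neither), 1 point per replicate number with VPS37C intact (filled) or depleted (open), and the mean of the 6 points as a red bar. All 6 points share a sign for KRTAP2-3, SRXN1, UGDH and C2orf54, while IL32, FTL, LY6G6D and CORO1A have points on both sides of 0.

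A difference between the states was called for 1 gene of 6458 (0.0155%, the 1 call being positive, with 0 negative), CDA, while 826 genes had an unadjusted p under 0.05 in limma. CDA, cytidine deaminase of the pyrimidine salvage pathway, was at 2.18, 5.13 and 4.25 TPM in siCTRL, 11.3, 19.1 and 16.0 in siVPS37A, 12.4, 21.2 and 8.06 in siVPS37B and 53.2, 57.8 and 49.9 in siVPS37AB. With VPS37C depleted it was at 7.54, 10.3 and 7.19 in siVPS37C, 9.42, 23.3 and 13.5 in siVPS37AC, 8.41, 13.8 and 10.1 in siVPS37BC and 94.2, 113 and 97.0 in siVPS37ABC. The libraries depleted of all 3 paralogs lay above those of siVPS37AB, which lay above all the rest. Its departure was 0.18 with VPS37C intact and 2.40 with VPS37C depleted, a difference of 2.22 (adjusted p = 0.0493). The call did not survive leaving out replicate number 1 or 2, nor the fit without the replicate block, in each of which 0 genes were called. CDA was called in 8 of the 24 fits with 1 library left out, and 13 of the 24 called 0 genes. Without replicate number 3, in contrast, 944 genes were called, CDA among them. Next by p were PSME3, a proteasome activator subunit, at -1.35 (adjusted p = 0.0538), HSPB11 at -1.02 and the transferrin receptor gene TFRC at -1.06 (both adjusted p = 0.129) on the negative side. OLFML3 at 0.93 (adjusted p = 0.129) and VAT1 at 0.87 (adjusted p = 0.146) came next on the positive side, and none of these was called. HSPB11 had a called departure of 0.63 ± 0.15 when averaged over the states of VPS37C (adjusted p = 0.0212), with 1.14 while VPS37C was intact and 0.12 while it was depleted.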

How the data were processed

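RNA of 27 DLD1 libraries was measured with the Ion AmpliSeq Transcriptome panel, per the labels' protocols. HTSeq 0.6.0, DESeq2 1.18.1 and the build hg19 appear in the submitters' processing notes. The deposited values sum to the same total in every library and are treated as TPM as the authors deposited them. Whether they were divided by gene length is not given in the sources used here, so levels are not compared between genes, and depth is unknown. The table held 10470 named genes and 2157 empty lines, and 0 columns were left unused.

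Genes averaging 10 TPM or more over the 27 libraries (6458) were fitted on log2(TPM + 1) with limma 3.58.1 (R 4.3.3, intensity trend) on the presence of each siRNA, all 2-way terms and the replicate number. Adjusted p-values are Benjamini-Hochberg values over all genes tested, and errors are SE unless marked SD. The 3-way contrast and the values at each state of VPS37C came from a fit with a mean per group. The code was tested on simulated data. Summed markers and motif counts were made with Python 3.11.15.

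The replicate number is the labels' batch and so pairs the libraries. Residuals from the group means correlated with a mean r of 0.382 over 84 pairs of same-numbered libraries (-0.386 to 0.757). The mean of -0.188 over 168 other pairs follows largely from subtracting each group's mean. For siVPS37A replicate 3 the mean r with its own number was -0.153.

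Named genes were the 3 paralogs, the 12 most positive and 12 most negative called departures at a mean of at least 30 TPM with 1 sign in all replicate numbers, 3 per direction for the 3-way contrast and up to 3 per list. All other called list members, CDA and uncalled list members with values were added after their values were seen. Values of 3 list members are not reported here, though list counts and medians include them. The members and lists were chosen with earlier results of these data known. Alternatives left out libraries or replicate numbers and changed the block, library number term, filter, pseudocount, scaling, scale, reference and model.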

Additional observations from a re-analysis of the deposited data

Results flagged for a closer look

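In 201 of 6458 genes the effect of the VPS37A siRNA differed between VPS37B intact and VPS37B depleted by limma's test of the difference itself. The libraries that move this count are named with it above.

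For CDA the departure differed by 2.22 log2 units between VPS37C depleted (2.40) and VPS37C intact (0.18), also by a test of the difference (adjusted p = 0.0493). The library description number does not cancel from this difference in any replicate number, and with a term for it 988 genes were called for the difference, against 1 without.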

How the results depend on the processing

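Without the replicate block, 37 departures were called (24 positive, 13 negative), 0 differences by the state of VPS37C, 303 VPS37A siRNA effects with VPS37B intact, and 127 and 792 VPS37B siRNA effects with VPS37A intact and depleted. Called members then numbered 3 in the MAPK and AP-1 list, 1 in the lysosome and autophagy list and 0 in the histone list. With a term for the library description number the counts of all genes, in the order first given, were 63, 988, 143, 52 and 1423.

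With no filter on low values, 306 departures and 0 differences by VPS37C were called. At a mean of at least 50 TPM the departures were 78, the VPS37A effects 316 and 953, and the VPS37B effects 278 and 627, with 2599 genes tested. With untransformed values 215 departures (149 positive, 66 negative) and 2 differences by VPS37C were called. With untransfected cells in place of siCTRL these were 305 (126 of them among the 201) and 14, and the VPS37B effects with VPS37A intact 338. In a fit of the groups with VPS37C intact alone 2 departures were called, and 161 in those with it depleted.

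With 1 library left out, the counts ran from 110 to 355 for departures, 0 to 15 for differences by VPS37C, 478 to 1123 and 1990 to 2776 for VPS37A effects with VPS37B intact and depleted, and 255 to 994 and 1174 to 2065 for VPS37B effects. With 1 replicate number left out they ran from 2 to 207, 0 to 944, 190 to 1519, 1274 to 2405, 47 to 766 and 413 to 2067. Pseudocount, scaling, trend and the model with a mean per group left every count of departures within 1.5 times. Of the gene values under the alternatives, 2585 kept their sign and side of the threshold, 598 lost it, 36 passed it and 33 had another sign. These 33 belong to 6 genes that were not called, none of the 33 passed the test, and 0 values of called genes changed sign. For PSME3 (-6.91e-04 as reported) they were 0.13 with the library description term, 0.0012 with quantile normalization, 0.011 with size factors, 0.017 with untransfected cells and 0.68 with VPS37C intact alone. VPS37C stood at 0.29 with that term, 0.38 TPM untransformed and 0.21 with VPS37C intact alone. VPS37B stood at -0.11 with a pseudocount of 8, -8.94 TPM untransformed and -0.045 with VPS37C depleted alone. OLFML3 stood at -0.010 with the term and -0.39 with VPS37C intact alone, VAT1 at -0.33 there, and TFRC at -0.20 with VPS37C depleted alone. With libraries left out, VPS37B ran from -0.11 to 0.34, VPS37C from -0.22 to 0.077, VAT1 from -0.0048 to 0.20 and PSME3 from -0.21 to 0.17. The depth of the libraries is unknown, so the precision of low values cannot be given.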
